A study of Homo sapiens with 6 samples.

Results

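HOX genes encode homeodomain transcription factors that give cells their position along the body axis, and 28 of the 39 human HOX genes could be followed here among 19775 genes measured in H295R/TR SF-1 cells. They were taken by gene symbol alone, as every gene called HOXA, HOXB, HOXC or HOXD followed by a number, with antisense genes kept apart. No measured value was part of this rule, but the rule was chosen with earlier results of these data known. The 28 genes comprised 10 of 10 HOXB genes, 9 of 9 HOXC genes, 8 of 9 HOXD genes and 1 of 11 HOXA genes, which was HOXA2. The other 11 were not analysed here, and HOXD3 among them lay only on probe sets that also list HOXD4. Of the 28, 13 had several probe sets and were represented by the one with the highest mean over all arrays, and 15 had a single probe set.

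H295R is a line from a human adrenocortical carcinoma, and H295R/TR SF-1 is a subclone of it whose SF-1 transgene is turned on by doxycycline (Dox). SF-1, encoded by NR5A1, is a nuclear receptor and a main regulator of steroid-producing cells. The 3 arrays labelled Dox came from cells given doxycycline at 1 µg/mL for 72 h, and the 3 labelled basal from cells cultured for 72 h without it. All 6 arrays carry the same inducible transgene in the same subclone, and cells without the transgene given doxycycline were not analysed here, so induced SF-1 and the drug itself cannot be told apart. The study calls the arrays of a condition biological replicates and names neither pairs nor batches. The question put to them was which genes respond to a higher dose of SF-1 in adrenocortical tumour cells.

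HOX genes lie in 4 clusters, named HOXA to HOXD, in which genes are ordered by paralog group, and low-numbered genes are used towards the head and high-numbered ones towards the tail. HOX proteins bind DNA with cofactors of the PBX, MEIS and PKNOX families, and the clusters are kept active by trithorax and silent by polycomb proteins.

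Values are log2 signals, so that a difference of 1 is a doubling, and the levels of different probe sets are not compared with each other. Arrays carry the name of their labelled group with a number given in the order of deposition. Before the results, a feature of the labels has to be stated. Over the 28 HOX genes, the array labelled Dox 1 differed from basal 1 with an SD of 0.111, and Dox 2 differed from basal 3 with an SD of 0.112. Arrays of the same label differed by 0.270 to 0.434, which is more than these 2 pairs of opposite label. Over all probe sets the SDs were 0.134 and 0.149 for the 2 pairs and 0.258 to 0.452 within a label. In addition, Dox 3 and basal 2 lay apart from the 4 other arrays across the table, and are called a separate array set below. They were not a near-identical pair, since they differed from each other with an SD of 0.318 over all probe sets. Over the HOX genes that SD was 0.279, beside 0.270 for Dox 3 and Dox 2 and 0.281 for Dox 3 and basal 3. Each result is therefore given for all 6 arrays and again for Dox 2 and Dox 3 against basal 1 and basal 2, with the array set as a block. Since these same data guided which arrays were dropped and what served as the block, the second comparison gives p-values that cannot count as independent evidence.

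NR5A1, the induced gene, was used to check the labels. By the background limit given below, it was above background in only 3 arrays, Dox 2, Dox 3 and basal 3, so it is a weak check. Its signal was 5.55, 6.21 and 6.41 in the arrays labelled Dox 1, 2 and 3, against 5.84, 5.92 and 6.30 in the arrays labelled basal 1, 2 and 3. Dox 1 was the lowest of the 6 and basal 3 the second highest, so the groups overlapped and the label of Dox 1 was not borne out by this gene. The difference over all 6 arrays was 0.03 ± 0.24 (SE), and that within array sets was 0.43 ± 0.13, with an adjusted p of 0.0808 in limma. NR5A1 passed within array sets in 2 alternatives, with an adjusted p of 0.0307 with the mean of each gene's probe sets and 0.0467 with dim genes left out, and over its other alternatives the adjusted p was 0.0756 or more. Every direction given below thus rests on the labels as deposited. The sources used here do not say if the transgene's transcript is seen by the NR5A1 probe set.

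Adrenocortical identity was checked on a list of markers. Of 9 measured adrenal cortex markers, 5 were above background in all 6 arrays. HSD3B2 was above it in 4, NR5A1 in 3, and MC2R and INHA in none. Of the markers of endothelial, blood and stromal cells, 9 were measured, of which PECAM1, HBB and COL1A1 were above background in all 6 arrays, DCN in 3, and CDH5, PTPRC, VWF, COL1A2 and LUM in none. Background here means the 95th percentile of 107 probe sets of olfactory receptor genes, which are not expected in these cells, on the array in question, and it lay between 5.77 and 6.07. It is a guide and not a detection call.

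By this limit, 15 of the 28 HOX genes were above background in all 6 arrays, HOXC13 was above it in 2, and 12 were above it in none. The share above background in at least 3 arrays was 53.6% of HOX genes and 62.5% of all genes, and 57% of all genes were above it in all 6. Among the HOXB, HOXC and HOXD clusters, HOXB had the most such genes, with 8 of 10. These were HOXB2 to HOXB7, HOXB9 and HOXB13, whereas HOXB1 and HOXB8 stayed below the limit. In the HOXC cluster 5 of 9 were above it, which were HOXC4, HOXC5, HOXC6, HOXC9 and HOXC11. Of the HOXD genes, HOXD8 and HOXD9 were above the limit and 6 of 8 were not. HOXA2, the only HOXA gene analysed, was below it, so the HOXA cluster is not covered by these counts. By position among the genes analysed, 4 of 8 of paralog groups 1 to 4 were above background. The counts were 6 of 8 for groups 5 to 8 and 5 of 12 for groups 9 to 13. HOXB7 was above the limit by a wide margin, with 9.95, 10.19 and 10.58 in Dox 1, 2 and 3, against 10.01, 10.46 and 10.22 in basal 1, 2 and 3, and its groups overlapped. The 3 HOXB7 probe sets were all above background in all arrays, and so were the second probe sets of HOXB3 and HOXB5. In contrast, the second probe sets of HOXB6, HOXB13 and HOXD9 were below it in all arrays. That of HOXB9 was above it only in Dox 1 (5.87). For these genes the count thus rests on the brighter probe set.

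**Figure D1:**
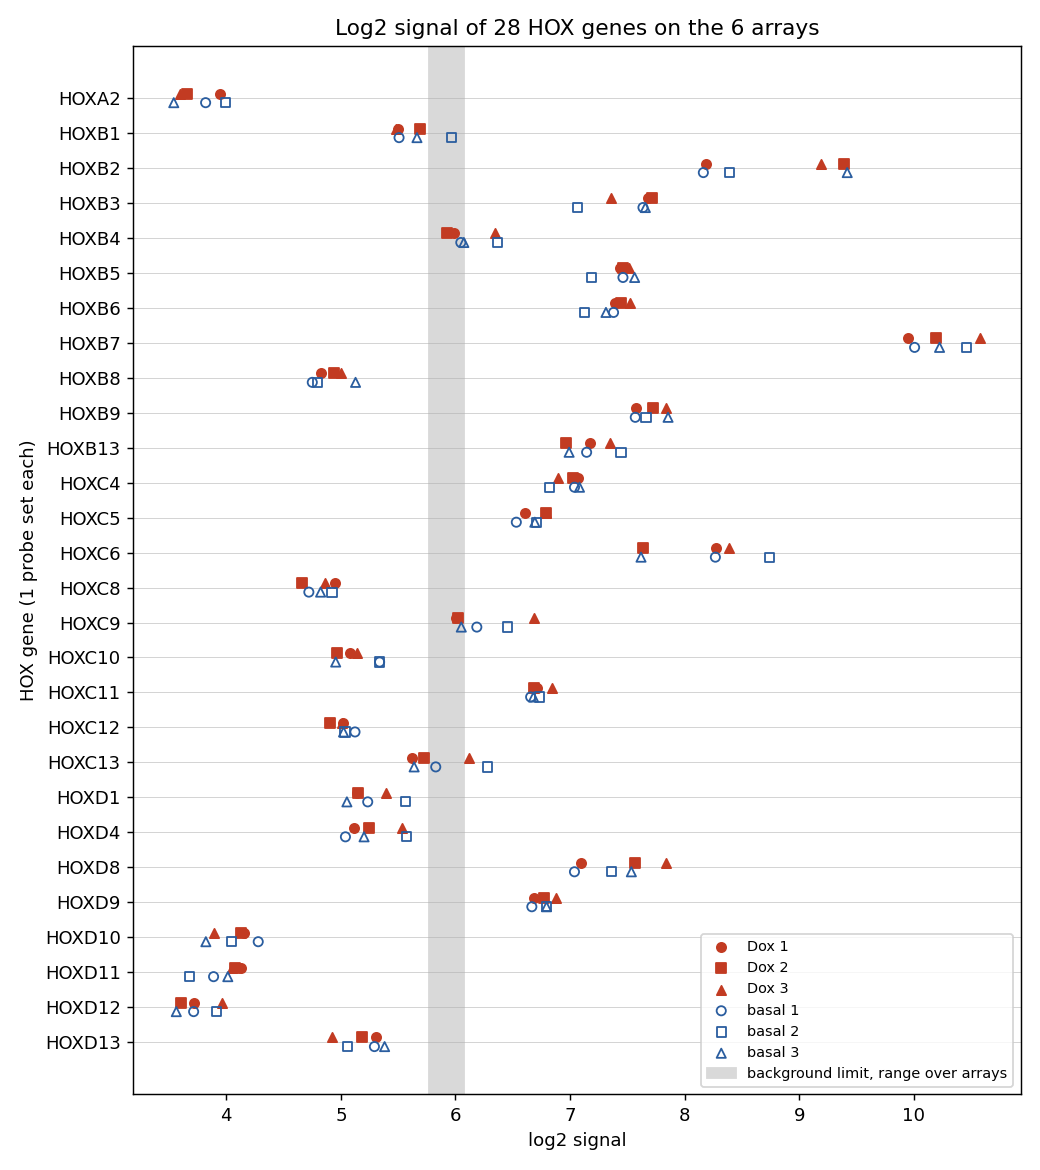
Log2 signal (horizontal axis) of 28 HOX genes (rows), with 1 point per array. Filled red points are the arrays labelled Dox 1, 2 and 3, drawn just above the open blue points of basal 1, 2 and 3, and the grey band spans the background limits of the 6 arrays, from 5.77 to 6.07. The 15 genes above background lie right of the band, except that HOXB4 and HOXC9 have points within it, and the wide rows of HOXB2 and HOXC6 each hold points of both colours at both ends.

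Promoters of some HOX genes and transcripts named in the results are shown first. They are RefSeq sequences of GRCh38.p14, each running from 250 bases before a gene's start to 50 bases after it. Of the 28 HOX genes, 11 had one. HOXB2 and HOXC6, both described below, were not among these 11 and had no window under their own names. Capitals mark matches on either strand to the motifs searched, which were AAGGTCA for an SF-1 half-site, TGATTNAT for a PBX-HOX site, TTTATNG for a CDX site and CCAAT for a CCAAT box. The windows shown belong to HOXD8, which passed the test within array sets, to HOXC4 and HOXC5, whose annotated start is shared with HOXC6, and to 2 antisense RNAs described below.
HOXD8, chr2:176129455-176129754, plus strand: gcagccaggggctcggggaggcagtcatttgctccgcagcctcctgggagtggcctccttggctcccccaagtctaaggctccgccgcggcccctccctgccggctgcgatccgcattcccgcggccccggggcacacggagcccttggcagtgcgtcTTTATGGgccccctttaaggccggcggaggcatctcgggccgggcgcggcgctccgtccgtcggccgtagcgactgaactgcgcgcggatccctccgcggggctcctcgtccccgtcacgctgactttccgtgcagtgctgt
HOXC4 and HOXC5, chr12:54016638-54016937, plus strand: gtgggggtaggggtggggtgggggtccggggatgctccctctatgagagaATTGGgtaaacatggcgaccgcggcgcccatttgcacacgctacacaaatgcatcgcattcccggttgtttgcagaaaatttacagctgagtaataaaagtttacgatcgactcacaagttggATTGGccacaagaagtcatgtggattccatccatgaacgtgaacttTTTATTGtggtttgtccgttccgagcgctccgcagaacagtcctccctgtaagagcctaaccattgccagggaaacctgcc
HOXB-AS1, chr17:48544101-48544400, plus strand: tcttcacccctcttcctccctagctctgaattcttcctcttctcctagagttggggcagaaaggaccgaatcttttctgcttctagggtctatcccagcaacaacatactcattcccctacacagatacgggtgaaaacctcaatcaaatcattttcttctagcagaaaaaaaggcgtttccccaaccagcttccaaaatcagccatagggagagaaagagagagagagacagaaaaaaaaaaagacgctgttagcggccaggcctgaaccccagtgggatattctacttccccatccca
HOXA11-AS, chr7:27185158-27185457, plus strand: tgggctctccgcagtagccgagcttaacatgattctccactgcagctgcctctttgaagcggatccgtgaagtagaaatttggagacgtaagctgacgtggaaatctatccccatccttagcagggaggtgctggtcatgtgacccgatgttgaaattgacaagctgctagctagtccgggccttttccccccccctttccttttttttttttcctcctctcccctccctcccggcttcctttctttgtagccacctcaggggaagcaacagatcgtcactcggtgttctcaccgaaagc

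The 11 HOX promoters searched did not include HOXB2 or HOXC6 under their own names. The SF-1 half-site letters were in 0 of these 11 and in 3.92% of 35116 promoters of the same length. The CDX letters were in 3 of the 11, those of HOXC4, HOXC5 and HOXD8, and in 9.73% of all promoters. The PBX-HOX letters were in 2, HOXA2 and HOXD11, against 2.82% of all, and the CCAAT letters in 9, against 34.6% of all. HOXA2, HOXD11 and all carriers of the CCAAT letters except HOXC4 and HOXC5 were below background in every array. The HOXC4 and HOXC5 windows are the same stretch, so their matches count once in substance. In the HOXD8 window the CDX match starts at position -92 from the gene's start, which is base 159 of the window, and no motif searched has a match in the HOXB-AS1 or HOXA11-AS windows. A match describes the letters and is neither a bound site nor a cause.

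The first comparison asked which HOX genes differed between the 3 arrays labelled Dox and the 3 labelled basal. None did by the test across genes. With limma and adjustment over all genes, 0 of the 28 HOX genes passed an adjusted p of 0.05, and 0 of 19775 genes did (0%). At an unadjusted p under 0.05 there were 0 HOX genes, against 109 genes or 0.551% of all. The median difference of the 28 was 0.01 with a range from -0.16 for HOXB1 to 0.26 for HOXB2, and 18 were above and 10 below 0. All genes had a median of -0.0005, and the median size of the difference was 0.06 for HOX genes and 0.07 for all genes.

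The groups of 3 arrays did not overlap for 3 HOX genes, HOXB6, HOXC12 and HOXD11, which is 10.7% of them, against 3.17% of all genes. HOXB6 had 7.39, 7.45 and 7.53 in Dox 1, 2 and 3, against 7.38, 7.13 and 7.31 in basal 1, 2 and 3. Dox 1 and basal 1 were next to each other, 0.01 apart, so the separation of HOXB6 was small where the groups met. Its difference was 0.18 ± 0.13 (SE), and the exact permutation test gave p = 0.1 (n = 3 arrays each), the smallest p that 3 against 3 arrays allow. Any gene whose groups do not overlap gives this p, so the test adds nothing for genes picked in this way. The second HOXB6 probe set was below background in all arrays and had a difference of -0.14. HOXC12 (-0.09) and HOXD11 (0.22) were below background in all arrays.

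The second comparison asked the same of Dox 2 and Dox 3 against basal 1 and basal 2, within array sets. There 3 of the 28 HOX genes passed an adjusted p of 0.05 in limma, 2 higher and 1 lower in the arrays labelled Dox. That is 10.7% of HOX genes, beside 6.99% of all genes (3.42% higher and 3.58% lower). Among genes above background in at least 3 arrays, 3 of 15 HOX genes were called, beside 9.93% of all such genes. The 3 genes came from 3 clusters and from paralog groups 2, 6 and 8, and each has 1 probe set, so no second probe set bears on them.

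HOXB2 (chromosome 17), which patterns the hindbrain, had the largest difference of the 28. Its signal was 8.18, 9.39 and 9.19 in Dox 1, 2 and 3, against 8.16, 8.39 and 9.42 in basal 1, 2 and 3. Dox 2, Dox 3 and basal 3 formed the high arrays and the other three the low ones, so the labelled groups overlapped. The means of all 3 arrays were 8.92 ± 0.65 in Dox and 8.66 ± 0.67 in basal (SD, n = 3 each), a difference of 0.26 ± 0.43 (SE, 95% interval -0.75 to 1.28), with p = 0.9 in the exact permutation test. Within array sets HOXB2 rose by 1.01 ± 0.13 (SE, 0.72 to 1.30), which is 2.02-fold, with an adjusted p of 0.00059 in limma. Both sets had this direction, with 1.23 for Dox 2 minus basal 1 and 0.80 for Dox 3 minus basal 2. The pair left out, Dox 1 minus basal 3, gave -1.24. Since Dox 1 was close to basal 1 and Dox 2 to basal 3, this value largely mirrors Dox 2 minus basal 1. It is not a separate observation, and the same holds for the pair left out in the genes below. HOXB2 was the one HOX gene that also passed the study's threshold of 2-fold with an unadjusted p under 0.05, beside 1.53% of all genes. The study itself names HOXB2 among the genes raised on these arrays, so this value is no independent evidence of direction.

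HOXD8 (chromosome 2), a gene of the middle of its cluster, also rose within array sets. Its signal was 7.09, 7.57 and 7.84 in Dox 1, 2 and 3, against 7.04, 7.36 and 7.53 in basal 1, 2 and 3. Dox 3 was the highest and basal 1 the lowest, with Dox 1 just above it, and the groups overlapped. Over all 6 arrays the difference was 0.19 ± 0.23 (SE, p = 0.4 in the exact permutation test, n = 3 each). Within array sets it was 0.50 ± 0.12 (0.23 to 0.78), or 1.42-fold, with an adjusted p of 0.0326 in limma. The differences in the sets were close to each other, 0.53 for Dox 2 minus basal 1 and 0.47 for Dox 3 minus basal 2. The pair left out gave -0.44.

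HOXC6 (chromosome 12), which in mouse marks motor neurons of the forelimb level, fell within array sets. Its signal was 8.27, 7.64 and 8.38 in Dox 1, 2 and 3, against 8.27, 8.74 and 7.62 in basal 1, 2 and 3. Dox 2 and basal 3 were the low arrays, Dox 1 and basal 1 were equal to 2 decimals, and Dox 3 and basal 2 were the high ones. The difference over all 6 arrays was -0.11 ± 0.33 (SE, p = 1 in the exact permutation test, n = 3 each). Within array sets HOXC6 fell by 0.49 on the log2 scale, with an SE of 0.13 and an interval of -0.77 to -0.21, and was 1.41-fold lower in Dox, with an adjusted p of 0.0387 in limma. In Dox 2 minus basal 1 it was -0.63 and in Dox 3 minus basal 2 it was -0.35, and the pair left out gave 0.65. Without the mean-variance trend in the fit, HOXC6 was no longer called.

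**Figure D2:**
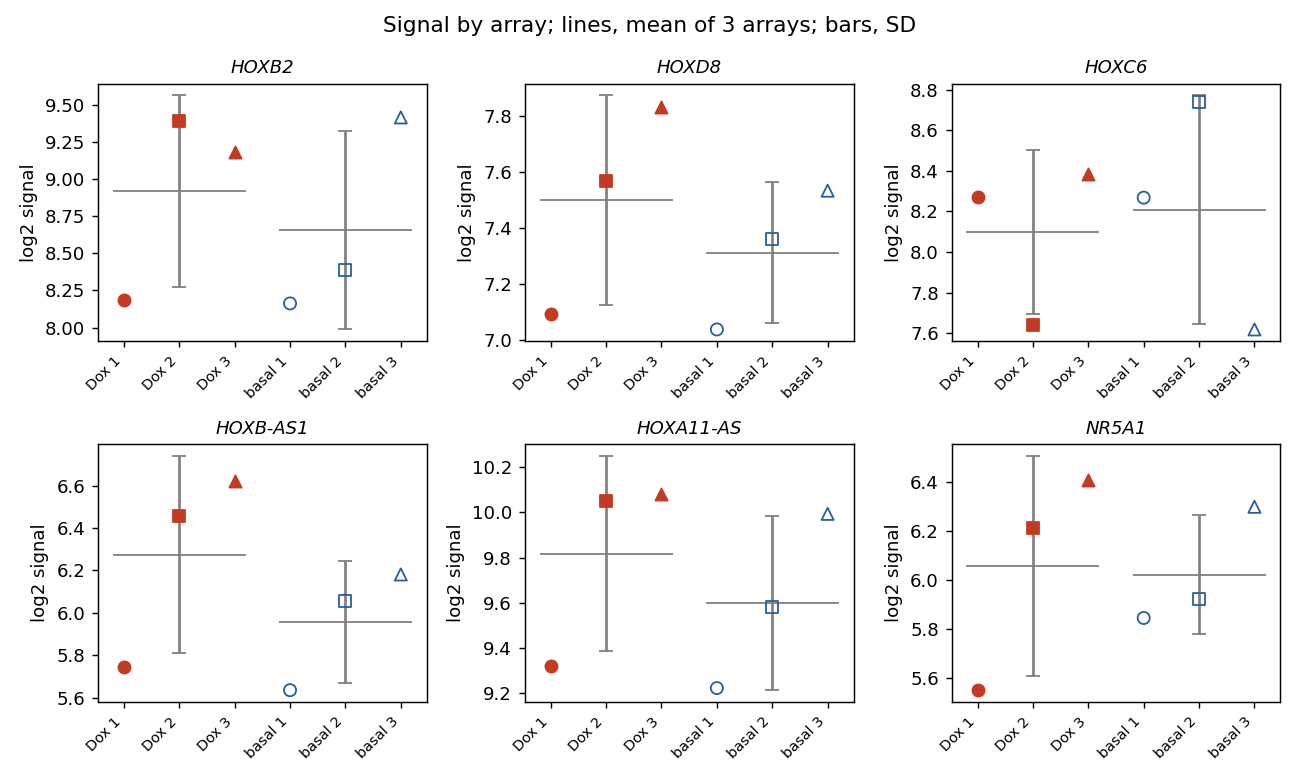
Log2 signal (vertical axes, each with its own range that does not start at 0) of HOXB2, HOXD8, HOXC6, HOXB-AS1, HOXA11-AS and NR5A1 on the arrays labelled Dox 1 to 3 (filled red) and basal 1 to 3 (open blue). Grey lines are means of 3 arrays and bars are the SD. In each panel Dox 1 sits close to basal 1 or below it, and in HOXB2 the values of 9.39 in Dox 2 and 9.42 in basal 3 are nearly equal.

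These 3 calls depended on which arrays were left out and on the block. When basal 1 and Dox 2, the other members of the 2 near-identical pairs, were left out instead, 0 of 28 HOX genes and 0 of 19775 genes passed, and the difference was -0.22 for HOXB2, 0.15 for HOXC6 and 0.02 for HOXD8. At an unadjusted p under 0.05 that choice gave 0 HOX genes and 112 genes in all. Without the array set as a block the 3 differences were the same, 1.01, -0.49 and 0.50 for HOXB2, HOXC6 and HOXD8, and only their error was larger. The adjusted count was then also 0, for HOX genes and for all genes, and the unadjusted count was 1 HOX gene, HOXB2, and 837 genes.

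The 25 other HOX genes did not pass within array sets, with adjusted p-values of 0.296 or more. Their differences ran from -0.28 for HOXC10 to 0.28 for HOXD11, both below background. Among the 12 of them above background, 10 were above 0 and 2 below, with adjusted p-values of 0.432 or more. HOXB6 had 0.23 ± 0.13 (SE), HOXB3 0.19 ± 0.13, HOXC5 0.17 ± 0.13, HOXB9 0.16 ± 0.12 and HOXB5 0.16 ± 0.13, and HOXB4, known for expanding blood stem cells, had -0.07 ± 0.13. Over all 6 arrays the same genes had 0.18, 0.13, 0.08, 0.02, 0.07 and -0.08 in that order, and the groups overlapped for all of them but HOXB6. HOXB9 had 7.57, 7.73 and 7.83 in Dox 1, 2 and 3, against 7.57, 7.66 and 7.85 in basal 1, 2 and 3, and its groups overlapped almost fully. HOXB3 was not steady between probe sets, since its second probe set gave -0.16 within array sets.

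**Figure D3:**
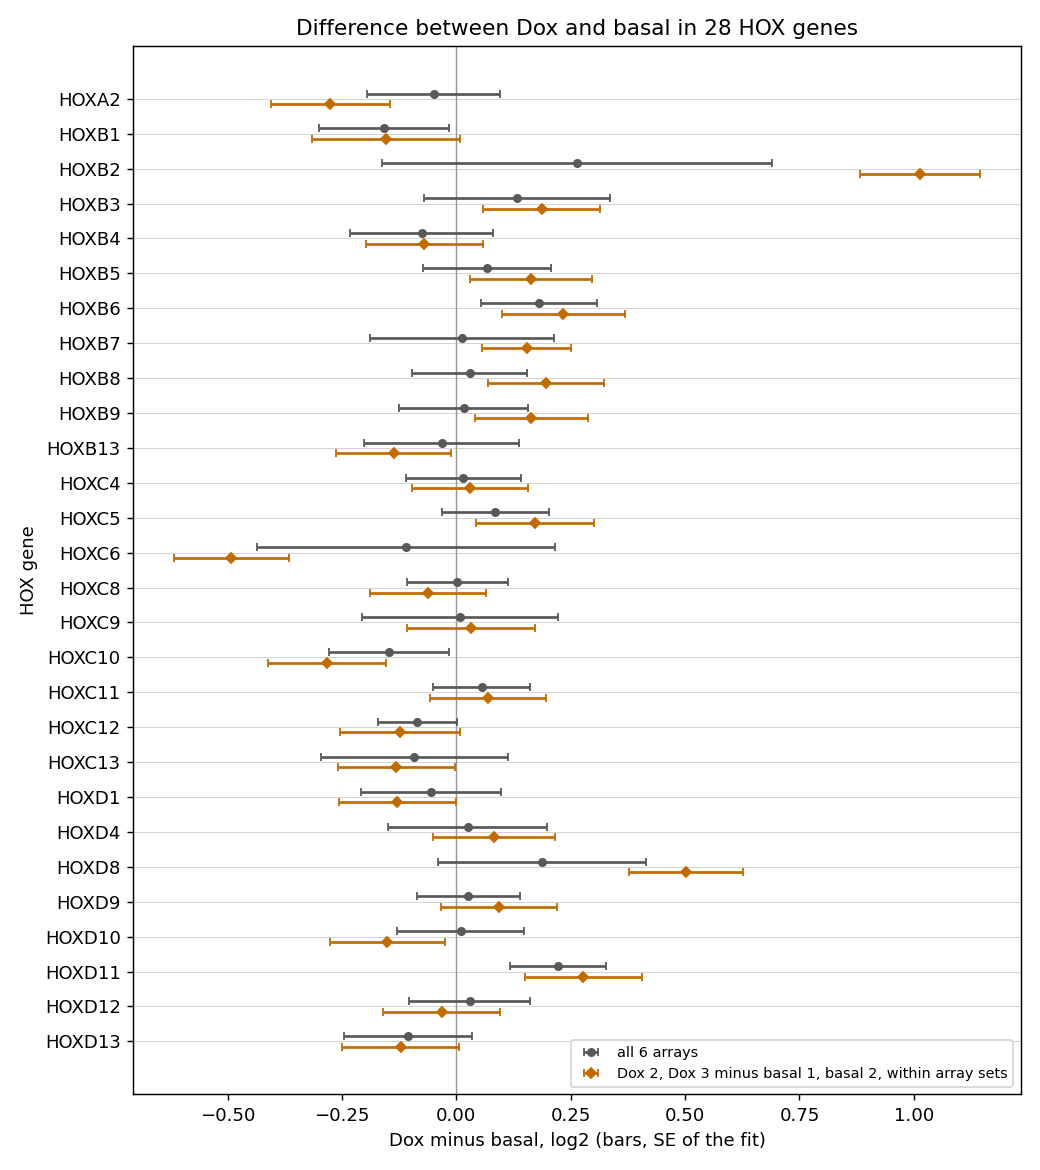
Dox minus basal on the log2 scale (horizontal axis) for 28 HOX genes (rows), with bars for the SE of the fit. Grey circles are all 6 arrays and orange diamonds are Dox 2 and Dox 3 minus basal 1 and basal 2 within array sets. The grey circles lie between -0.16 and 0.26, and among the diamonds HOXB2 at 1.01, HOXD8 at 0.50 and HOXC6 at -0.49 stand farthest from 0.

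The cluster medians within array sets were 0.16 for 10 HOXB genes, -0.06 for 9 HOXC genes and 0.02 for 8 HOXD genes, and HOXA2 had -0.28. The median of all 28 was 0.03, with 15 above and 13 below 0, and that of all genes was -0.006. By position the medians were -0.02 for paralog groups 1 to 4, 0.17 for groups 5 to 8 and -0.08 for groups 9 to 13. No test was made of these medians. The direction was the same in both array sets for 22 of 28 HOX genes (78.6%) and for 60.9% of all genes.

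**Figure D4:**
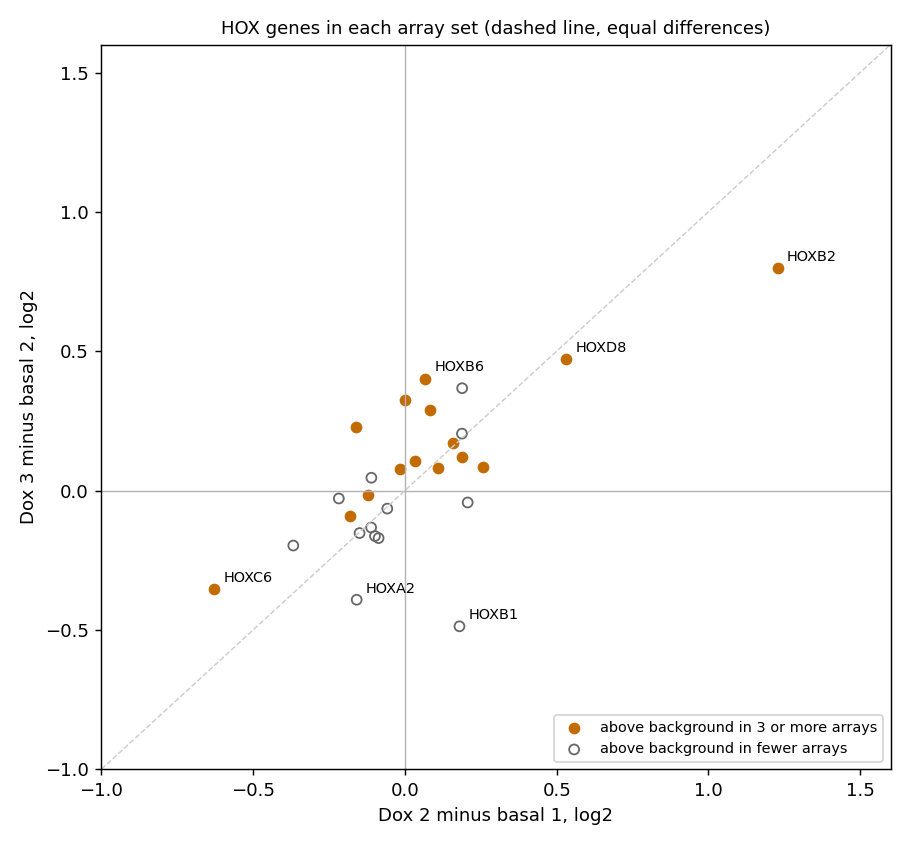
Log2 difference of Dox 3 minus basal 2 (vertical axis) against Dox 2 minus basal 1 (horizontal axis) for 28 HOX genes, with 1 point per gene. Orange points are the 15 genes above background in at least 3 arrays, open points the others, and the dashed line marks equal differences. HOXB2 lies at 1.23 and 0.80 and HOXC6 at -0.63 and -0.35, whereas HOXB1 has opposite signs in the 2 sets.

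The array sets themselves differed in many genes, whatever the label, and the share of HOX genes was near that of all genes. Dox 3 and basal 2 both lay outside the range of the 4 other arrays for 14 of 28 HOX genes (50%), 11 above and 3 below. The share among all genes was 52%, with 5013 above and 5265 below. Among genes above background in at least 3 arrays it was 9 of 15 HOX genes, beside 60.4% of such genes. HOXC6 was higher in these 2 arrays by 0.61, HOXC9 by 0.50 and HOXC13, a gene of hair and nail, by 0.49. HOXB3 went the other way, with -0.46, and HOXD13, a gene of digit formation, with -0.30. The only 2 arrays in which HOXC13 was above background were Dox 3 (6.12) and basal 2 (6.28), so its detection followed the array set and not the label. These 2 arrays were grouped from the data, so no test was made.

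The noncoding genes of the clusters were counted separately, from a list of 20 of which 11 were measured. None passed over all 6 arrays, and within array sets 2 of the 11 rose and 0 fell, beside 3.42% of all genes called higher and 3.58% called lower. HOXA11-AS, an antisense RNA of the HOXA cluster, had 9.32, 10.05 and 10.08 in Dox 1, 2 and 3, against 9.22, 9.58 and 9.99 in basal 1, 2 and 3. Dox 2, Dox 3 and basal 3 were high, the same arrays as for HOXB2. Its difference over all 6 arrays was 0.22 ± 0.28 (SE), and that within array sets 0.67 ± 0.12, with an adjusted p of 0.0041 in limma. A second HOXA11-AS probe set gave 0.62 within array sets.

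HOXB-AS1, an antisense RNA that overlaps HOXB2 and HOXB3 in the RefSeq annotation, also rose within array sets. It had 5.75, 6.46 and 6.62 in Dox 1, 2 and 3, against 5.64, 6.06 and 6.18 in basal 1, 2 and 3, and was above background in 3 arrays. Dox 2 and Dox 3 were the highest, but Dox 1 lay below basal 2 and basal 3. The difference was 0.32 ± 0.26 (SE) over all 6 arrays and 0.69 ± 0.13 within array sets, with an adjusted p of 0.0077 in limma. A second HOXB-AS1 probe set gave 0.03, and with the mean of the probe sets the gene was no longer called. HOXA-AS3 had 0.55 ± 0.17 and did not pass (adjusted p = 0.087).

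The cofactors of HOX proteins gave no call in either comparison, with 8 of 9 measured and 7 of these above background in at least 3 arrays. MEIS1, which forms complexes with HOX and PBX proteins on DNA, came nearest within array sets. Its signal averaged 9.15 ± 0.18 in Dox and 9.25 ± 0.23 in basal (SD, n = 3 each), so the groups overlapped. It had -0.33 ± 0.11 (SE, adjusted p = 0.124 in limma) within array sets and -0.10 ± 0.17 over all 6 arrays. The median of the 8 was -0.05 within array sets and -0.01 over all 6 arrays.

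Homeobox relatives outside the clusters, among them the CDX genes that regulate HOX genes in the embryo, also gave no call, with 10 of 11 measured and 4 above background in at least 3 arrays. MNX1, a gene of motor neurons and pancreas, had -0.32 ± 0.13 (SE, adjusted p = 0.2 in limma) within array sets.

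Marker genes of adrenal cells moved within array sets too. Of 9 adrenal cortex markers, 2 fell, HSD3B2 by 1.40 and STAR by 0.54 on the log2 scale, and 0 rose. Of all genes, 3.58% were called lower and 3.42% higher. The marker count depended on the setting. It was 4 after quantile normalization, 3 with the mean of probe sets and 6 with dim genes left out. All genes called in these settings numbered 1491, 1287 and 1456, the last among 12358 genes. Of the 6 markers called with dim genes left out, 4 fell and NR5A1 (0.43) and CYP11A1 (0.30) rose. Without the array set block, or with basal 1 and Dox 2 left out instead, the count was 0. The pair left out, Dox 1 minus basal 3, gave 1.36 for HSD3B2 and 0.56 for STAR. Of 7 adrenal medulla markers, 1 fell, CHGB, a protein of secretory granules, by 0.75 (adjusted p = 0.0088 in limma), and 0 rose, beside the same shares of all genes. CHGB was not called without the block or with basal 1 and Dox 2 left out, and its Dox 1 minus basal 3 was 0.97. Besides CHGB, PNMT, the enzyme that makes adrenaline, and CHGA were above background in all 6 arrays and PHOX2A in 4, while TH, DBH and SLC18A1, which make and store catecholamines, were above it in none. CHGB had 9.11, 8.10 and 6.98 in Dox 1, 2 and 3, against 9.11, 7.46 and 8.14 in basal 1, 2 and 3, so the groups overlapped, with Dox 1 and basal 1 equal to 2 decimals. The summed signal of the 7, on the log2 scale, ran from 8.67 to 9.74 in Dox and from 8.95 to 9.73 in basal. Of 9 measured endothelial, blood and stromal markers, 0 passed, and their summed signal ran from 9.02 to 9.26 in Dox and from 9.02 to 9.27 in basal. Whether these shifts have a part in the HOX values was not tested. A smaller share of cells of one type and less RNA per cell cannot be told apart in these bulk samples.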

How the data were processed

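Total RNA of 6 cultures of H295R/TR SF-1 cells was hybridised to Affymetrix 3′ expression arrays, 3 labelled Dox (1 µg/mL, 72 h) and 3 labelled basal (72 h). The authors deposited log2 values per probe set. GCRMA, a method that corrects background by probe sequence, is named in the submitters' notes with no version. The values were not rescaled. It is not given in the sources used here if the arrays were normalized together. No depth applies to arrays, and their number limits the precision.

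Of 54613 probe sets, 41091 had 1 symbol in the platform annotation, 1801 several and 11721 none. Only those with 1 symbol were used, and where a gene had several, the brightest by mean over the 6 arrays stood for it, giving 19775 genes. Groups were compared in R 4.3.3 with limma 3.58.1, using lmFit and a trended eBayes, two-sided, with Benjamini-Hochberg adjustment over all genes and a threshold of 0.05. Within array sets, the fit on 4 arrays left 1 residual degree of freedom, and its SE draws on all genes. Single genes were compared with exact permutation tests (scipy 1.17.1, Python 3.11.15), and figures were drawn with matplotlib 3.10.9.

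The members, gene lists and tests were chosen with earlier results of these data known. Genes named in full were NR5A1, every HOX gene past the threshold in either comparison, the 8 HOX genes with the largest difference in each comparison among those above background in at least 3 arrays, and up to 4 genes of each other list with the smallest adjusted p. HOXB7, HOXC9, HOXC12, HOXC13, HOXD11, HOXD13 and further members were named beside them after their values were seen, as ends of ranges or exceptions. Alternatives changed the arrays, the block, the normalization, the probe set rule, the filter on dim genes, the trend and the threshold.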

Additional observations from a re-analysis of the deposited data

How the results depend on the processing

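Over all 6 arrays the count of HOX genes called stayed at 0 under every alternative run, leaving out each array included (range 0 to 0). Within array sets the count of 3 became 0 without the array set block, 0 with the style of the sample labels as the block (which leaves basal 2 alone to stand for basal, as basal 1 is the only array of its style among the 4), 0 with basal 1 and Dox 2 left out in place of basal 3 and Dox 1, and 1 at the study's threshold; it was 3 with quantile normalization, 3 with the mean of a gene's probe sets, 3 without dim genes and 2 without the mean-variance trend. All genes called numbered 1383, 0 in each setting that gave 0 HOX genes, and 302 at the study's threshold. At an unadjusted p under 0.05 in limma, 1070 genes and 1 HOX gene, HOXB2, passed with the label style block, a fit of Dox 2 and Dox 3 against basal 2, and 3422 and 3 with the array set block and both basal arrays. The number of HOX genes above background was 15, and 17 and 14 with the 90th and 99th percentile as the limit. Over all 6 arrays, leaving out 1 array at a time gave ranges of 0.02 to 0.64 for HOXB2, 0.02 to 0.39 for HOXD8, 0.03 to 0.15 for HOXC5, 0.03 to 0.47 for HOXA11-AS, 0.14 to 0.58 for HOXB-AS1, -0.061 to 0.25 for HOXB3, -0.21 to 0.026 for HOXB4, -0.041 to 0.15 for HOXB5, -0.048 to 0.096 for HOXB9, -0.41 to 0.16 for HOXC6 and -0.14 to 0.29 for NR5A1. The sign changed in HOXB3, HOXB4, HOXB5, HOXB9, HOXC6 and NR5A1 without basal 2 (-0.061, 0.026, -0.041, -0.0007, 0.16 and -0.016), in HOXB4 (0.0052), HOXC6 (0.12) and NR5A1 (-0.043) without Dox 2, in HOXB9 (-0.045) and NR5A1 (-0.14) without Dox 3, and in HOXB9 (-0.048) and NR5A1 (-0.055) without basal 1. With the mean of probe sets HOXB3 was -0.0034. Without basal 1 and Dox 2, in either comparison, the values were -0.22 (HOXB2), -0.056 (HOXB9), -0.0018 (HOXC5), 0.15 (HOXC6), -0.13 (NR5A1) and -0.086 (HOXA11-AS). The array sets taken alone, chosen after seeing the data, gave HOXB5 -0.0002 in Dox 2 minus basal 1 and 0.33 in Dox 3 minus basal 2. The cause of these changes was not tested. Of 126 values of the 9 HOX genes named by rule over all 6 arrays, 112 kept direction and side of the threshold and 14 changed sign. The 81 values within array sets include each array set taken alone, which gives a difference but no p-value. Of these 81, 68 kept direction and, where there was a p-value, side of the threshold. Another 8 kept direction but lost the call, and 5 changed sign. Among those 5, HOXB2 and HOXC6 without basal 1 and Dox 2 also lost the call. No paired analysis was possible because the sample titles give no replicate number shared between Dox and basal, and the array sets used as a block pair arrays by their values, not by a label.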

Other observations

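Chromatin regulators of the HOX clusters gave no call in either comparison. All 10 trithorax genes were above background in all 6 arrays, with a median difference of 0.21 within array sets and 0.08 over all 6 arrays. DOT1L, a histone H3 methyltransferase needed for HOX expression in leukaemia, had 0.35 ± 0.14 (SE, adjusted p = 0.198 in limma) within array sets. Its signal was 8.45, 8.64 and 8.64 in Dox 1, 2 and 3, against 8.53, 8.06 and 8.71 in basal 1, 2 and 3, and basal 2 was the one low array. Of 20 polycomb genes, 16 were measured, all above background in all 6 arrays, with a median of -0.07 within array sets and -0.02 over all 6 arrays. EZH1, a histone methyltransferase of polycomb complex PRC2, had 0.32 ± 0.12 (adjusted p = 0.172), and basal 2 was again the lowest array (7.91).

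The 13 genes beside the HOX clusters gave no call either. LNPK, next to the HOXD cluster and a protein of the endoplasmic reticulum, had 8.25, 8.64 and 7.85 in Dox 1, 2 and 3, against 8.35, 7.29 and 8.60 in basal 1, 2 and 3. The difference was 0.43 ± 0.13 within array sets (adjusted p = 0.0786 in limma), and it was called when dim genes were left out of the fit. Over all 6 arrays it was 0.17 ± 0.37. The groups overlapped, with Dox 3 and basal 2 the 2 low arrays.

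The 3 probe sets that list HOXD3 together with HOXD4 had 2.89 to 4.16 in the arrays labelled Dox and 2.82 to 3.84 in those labelled basal, below the background limit in every array.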
